A study of Mus musculus with 9 samples.

Results

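Livers of mice labelled as a gefitinib damage model were compared with livers of control mice across every gene that could be tested. The comparison used 6 of the 9 libraries of the series, 3 labelled model and 3 labelled control, chosen by their group label. Of 27945 genes with at least 1 estimated count in the series, 22020 had a count in both the control and the model group, and 18113 passed the filter on low counts and were tested. Gefitinib is the agent of liver damage in the title of the series, and the labels give the model animals no other. The control animals are labelled only as control, with no vehicle named. The remaining 3 libraries, labelled treated, also enter the filter, the scaling and the estimate of spread behind each p, and their levels are set beside the comparison for some genes. What those mice received is not stated. No dose, duration, time of day, sex, strain, age or batch is given for any group. The titles speak of mouse liver cells and the source is liver, so whether whole tissue or isolated cells were taken is not stated. Whether the 3 libraries within each group stem from different mice is not said, so p-values here reflect only how far these libraries differ, which may be technical.

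Gefitinib blocks the kinase of the epidermal growth factor receptor (EGFR), which hepatocytes carry and which signals through the RAS and ERK cascade to genes of growth and repair. The drug is cleared by liver cytochrome P450 enzymes, and raised serum transaminases are a known side effect in patients. Liver tissue holds hepatocytes, which make the plasma proteins and carry out drug, lipid and bile acid metabolism, and between them sinusoids lined by a specialised endothelium that clears waste from the blood. Kupffer cells, the resident macrophages, sit on that endothelium, and stellate cells store vitamin A beneath it. When liver is injured or inflamed, hepatocytes make acute phase proteins and macrophages take up dead cells and lipid.

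The 6 libraries held between 56440871 and 60207688 estimated counts each, in 20579 to 21052 genes. Levels are given as CPM, the counts scaled to library size with the TMM factors of edgeR, and values after ± are the SD of 3 libraries. A gene is called when the quasi-likelihood test of edgeR, fitted over all 9 libraries, gave a Benjamini-Hochberg adjusted p under 0.05 for model against control. Albumin, Alb, which marks hepatocytes, was measured at 52762 to 66362 CPM in control and 58541 to 60341 CPM in model libraries, so both groups carry the labelled tissue. Skeletal muscle genes stood apart in model replicate 1, where the 18 tested markers summed to 271 CPM, against at most 15.0 CPM in the other model libraries and 13.7 to 18.6 CPM in control. The same sum was 191 to 234 CPM in the treated libraries. No muscle marker was called. The counts of calls per list that move without that library are given with their list or together after the drug metabolism genes.

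Across all genes tested, 94 were higher and 108 lower in model livers, which is 1.12% of the genes tested (0.519% higher and 0.596% lower). At least 2-fold changes were seen in 55 of the higher and 74 of the lower genes, and at least 4-fold changes in 19 and 10. The median log2 fold change over all genes was -0.00 and the median size was 0.25, against 1.20 for the called genes. The 3 model values lay wholly above or wholly below the 3 control values in 3614 genes, 20.0% of those tested, with 1758 above (9.71%) and 1856 below (10.2%). Most genes thus differed little, and the called ones were few. Together the genes called higher took 0.965% of CPM in control and 1.90% in model, and those called lower 0.533% and 0.264%. Calls depended on level: 0.124% of genes under 1 CPM were called, against 1.09% of those from 1 to 5 CPM and 1.49% of those from 5 to 50 CPM. The counts rested on few libraries. Without model replicate 1 there were 63 higher and 46 lower genes, without model replicate 2 there were 28 and 26, without model replicate 3 there were 34 and 46, without control replicate 2 there were 40 and 52, and without control replicate 3 there were 40 and 42.

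**Figure D1:**
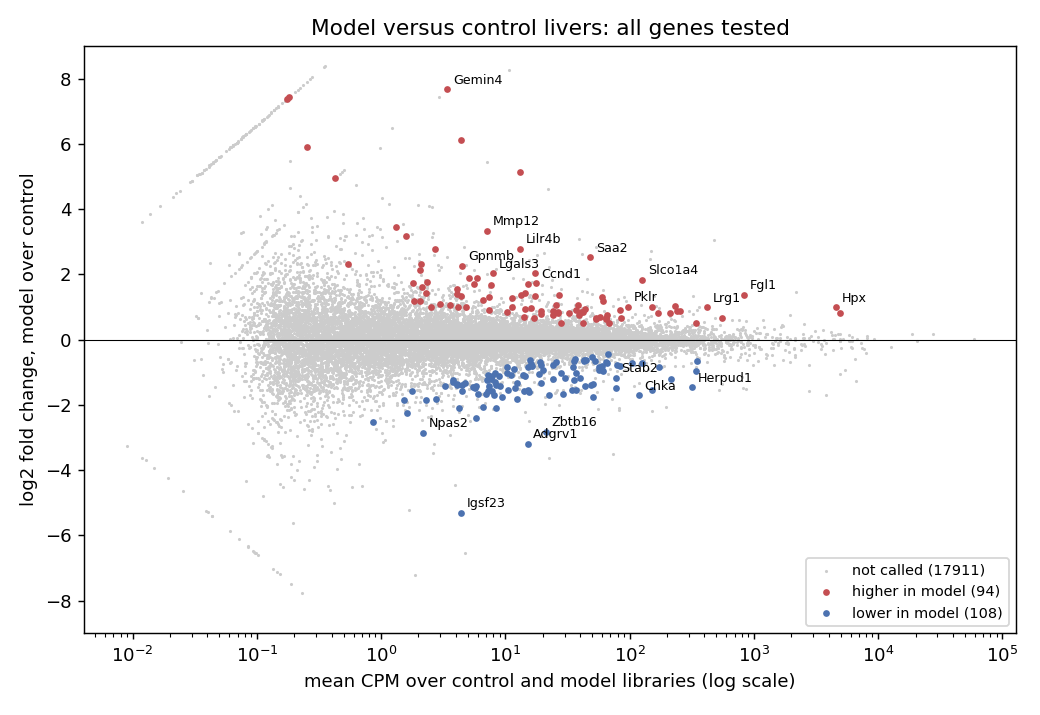
Each point is 1 of the 18113 genes tested, with the mean CPM over the control and model libraries on a log axis and the log2 fold change of model over control on the vertical axis. The 94 genes called higher are red and the 108 called lower are blue, 10 genes beyond the vertical range are not drawn, and most called genes lie above 1 CPM.

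The rise with the smallest p was in Lilr4b (ENSMUSG00000112023, GRCm38 chromosome 10, 51480632 to 51486703), an immunoglobulin-like receptor of myeloid cells. It was measured at 2.93, 2.79 and 4.18 CPM in control and 21.8, 22.4 and 24.4 CPM in model libraries. The groups were far apart, with a log2 fold change of 2.79 ± 0.16 (SE, adjusted p = 4.71e-05 in edgeR). Its close relative Lilrb4a, with which it can share reads, was at 8.90, 1.48 and 17.9 CPM in control and 23.8, 33.3 and 32.7 CPM in model without a call (adjusted p = 0.392). Gemin4 came next by p, and Gemin4 and the transcript forms of Lilr4b are described with the overlapping genes below. The other rises that the naming rule takes by smallest p were in genes of several functions. Slc20a1, a sodium-dependent phosphate transporter, rose from 25.2 ± 2.57 to 52.1 ± 4.24 CPM. Uap1l1, a gene related to UDP-N-acetylglucosamine pyrophosphorylase, rose from 7.16 ± 1.10 to 23.1 ± 7.40 CPM. The semaphorin receptor gene Plxnb1 rose from 37.7 ± 1.02 to 84.6 ± 12.3 CPM, and Tmem176a from 152 ± 9.43 to 310 ± 38.0 CPM. Cenpm, a centromere protein gene, went from 2.49 ± 0.427 to 9.26 ± 2.08 CPM and Gpr146, an orphan receptor gene of hepatocytes, from 57.6 ± 7.78 to 109 ± 6.57 CPM. Each of these 6 genes had an adjusted p between 0.0068 and 0.00791, and each kept its call under all 13 alternative settings.

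Among genes that fell, the smallest p was that of Zbtb16 (ENSMUSG00000066687, chromosome 9, 48654297 to 48836222), a zinc finger transcription factor that glucocorticoids induce. Its levels were 27.0, 55.9 and 28.6 CPM in control and 4.45, 6.18 and 5.16 CPM in model libraries, a 7.06-fold fall with no overlap (adjusted p = 0.0068, edgeR). Chka, choline kinase alpha, the entry enzyme of phosphatidylcholine synthesis from choline, was at 141, 192 and 215 CPM in control and 53.9, 51.9 and 61.8 CPM in model. Both genes kept their calls under all 13 alternatives. Among called genes the largest fall was in Igsf23, an immunoglobulin superfamily gene, from 8.61 ± 4.56 to 0.216 ± 0.166 CPM, a log2 fold change of -5.31 ± 0.67 (SE).

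Endothelial markers held more called members than any other of the 55 lists. Of 29 tested endothelial markers, 15 were lower (51.7%, against 0.596% of all genes tested) and none was higher. All 29 fold changes were below 0, with a median log2 fold change of -1.29 against -0.00 for all genes. The model values of 25 of the 29 lay wholly below the control values, where 10.2% of all genes did. The markers summed to 710 to 853 CPM in the control libraries and 331 to 354 CPM in the model libraries, and to 201 to 300 CPM in the treated ones. In bulk RNA, fewer cells of a type and less RNA per cell cannot be told apart. Of the 15 calls, 7 held under all 13 alternatives; leaving out 1 library at a time gave 12, 11 and 9 calls without control replicates 1, 2 and 3, and 10, 7 and 10 without model replicates 1, 2 and 3.

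The called members cover general vessel genes and genes of the sinusoid. Pecam1, the adhesion molecule CD31 at endothelial junctions (ENSMUSG00000020717, chromosome 11, 106654217 to 106750628), was measured at 15.9, 13.3 and 18.0 CPM in control and 5.42, 5.88 and 4.79 CPM in model. That is a 2.93-fold fall (adjusted p = 0.0068, edgeR). Tek, the angiopoietin receptor TIE2, went from 10.6 ± 1.11 to 3.37 ± 0.203 CPM. Receptors for vascular endothelial growth factors fell as well, Kdr from 34.3 ± 4.23 to 10.6 ± 0.955 CPM and Flt4 from 17.9 ± 3.87 to 7.07 ± 1.03 CPM. Eng, a co-receptor for TGF-beta and BMP ligands, fell from 55.3 ± 6.01 to 24.3 ± 0.188 CPM.

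Sinusoidal scavenger genes fell in the same libraries. Stab2, the hyaluronan and waste clearance receptor of sinusoidal endothelium, stood at 91.5, 112 and 121 CPM in control and 49.4, 53.7 and 40.6 CPM in model (2.26-fold lower, adjusted p = 0.0068, edgeR). Fcgr2b, the inhibitory Fc receptor that removes immune complexes there, was at 56.3, 44.0 and 49.1 CPM in control and 20.9, 19.9 and 22.4 CPM in model. Lyve1, a hyaluronan receptor, fell from 6.92 ± 1.20 to 1.62 ± 0.840 CPM and Dnase1l3, a secreted nuclease, from 44.5 ± 4.99 to 13.9 ± 3.26 CPM. Oit3, a marker of sinusoidal endothelium, fell from 19.4 ± 3.44 to 5.53 ± 1.21 CPM. Bmp2, a ligand from these cells that drives hepcidin in hepatocytes, fell from 12.4 ± 2.94 to 3.82 ± 0.540 CPM. Coagulation factor VIII, F8, which liver endothelium makes, was at 6.81, 6.92 and 6.49 CPM in control and 2.36, 2.46 and 3.17 CPM in model. Members that were not called had values such as 12.3 ± 2.39 and 6.50 ± 1.79 CPM for Cdh5 (adjusted p = 0.0929) and 6.39 ± 2.45 and 2.42 ± 0.919 CPM for Vwf (adjusted p = 0.0956).

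Further genes called lower are known from endothelium but were not on the list, and they were picked out after their values were seen. Gpihbp1, which carries lipoprotein lipase across capillaries, was at 12.3, 9.65 and 18.9 CPM in control and 2.70, 3.53 and 3.36 CPM in model. Cd300lg went from 14.5 ± 3.06 to 4.25 ± 1.01 CPM, Adgrl4 from 8.40 ± 0.847 to 2.99 ± 0.472 CPM and Jam2 from 11.8 ± 2.80 to 3.92 ± 0.806 CPM. Aqp1, a water channel of vessels and bile ducts, fell from 78.0 ± 12.1 to 23.1 ± 2.50 CPM. Plpp1, a lipid phosphate phosphatase, fell from 9.82 ± 1.66 to 1.87 ± 0.552 CPM.

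The promoter of Stab2 is shown because its gene belongs to the group that fell and carries letters that ETS factors, which act in endothelium, can bind. It is the RefSeq window of 300 bases around the start on the minus strand of GRCm38.p6, chr10:87007893-87008192, with AGGAAG on either strand and AGGTCA on the printed strand in capitals.
Stab2: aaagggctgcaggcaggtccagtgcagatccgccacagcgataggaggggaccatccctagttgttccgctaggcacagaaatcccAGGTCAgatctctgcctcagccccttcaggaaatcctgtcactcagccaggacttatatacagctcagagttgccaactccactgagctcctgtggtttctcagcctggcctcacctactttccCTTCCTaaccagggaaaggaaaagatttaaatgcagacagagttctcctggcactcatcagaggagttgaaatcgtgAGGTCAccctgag
The first capital block is AGGTCA, 164 bases before the start, the second is AGGAAG read on the other strand, 40 bases before it, and the last is AGGTCA, 37 bases after it. AGGAAG on either strand was in 11 of the 16 endothelial genes with a promoter in the table, and in 38.4% of all 27025 genes with one. In the 15 called members it was in 4 of the 8 with a promoter. A match is a description of the letters and not a bound site.

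**Figure D2:**
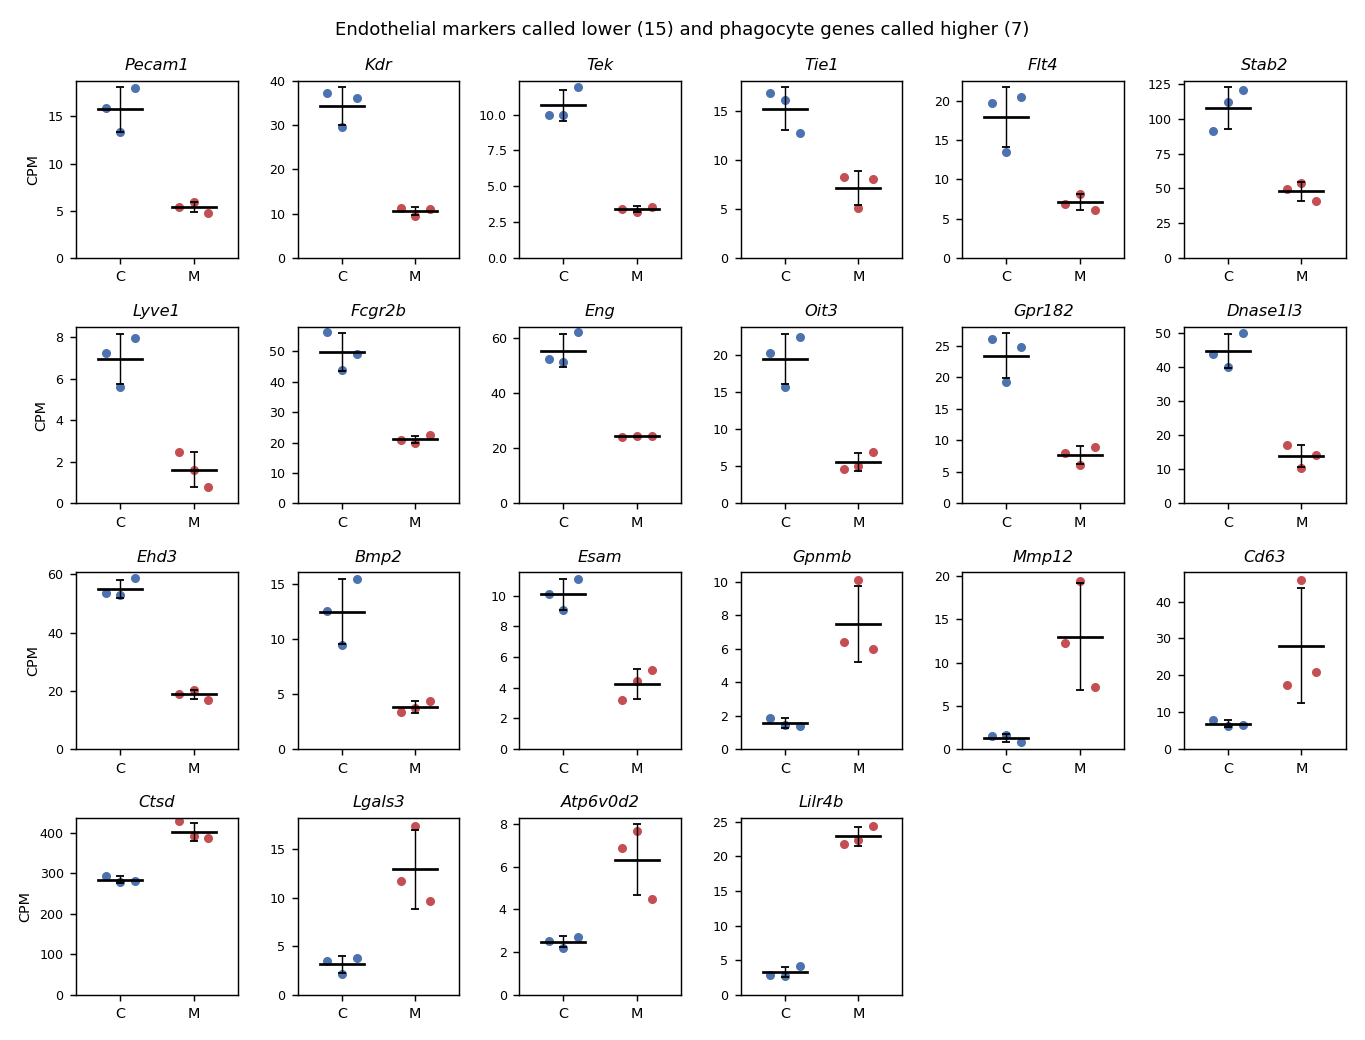
CPM of the 15 endothelial markers called lower and the 7 phagocyte genes called higher, with 1 point per control (C, blue) and model (M, red) library, the mean as a bar and the SD as the error bar, each panel starting at 0. No model point reaches the control points in any of the 22 panels.

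Among hepatocyte, stellate, cholangiocyte and mesothelial markers edgeR called none. Hepatocyte markers, 19 tested, had no call and a median log2 fold change of -0.12, and their sum was 144707 to 161947 CPM in control and 146501 to 149884 CPM in model. Of 19 stellate markers none was called, the median was -0.47, and 9 had model values wholly below control, where 10.2% of all genes did. Dcn, a small matrix proteoglycan, averaged 121 CPM in control livers against 80.6 CPM in model livers (adjusted p = 0.0684, edgeR). Cholangiocyte markers, 11 tested, also had no call, with a median of -0.31. Mesothelial markers, 6 tested, had a median of -1.34, close to the endothelial one, with 5 fold changes below 0 and 2 members with model values wholly below control. They are rare transcripts, which summed to 3.58 to 8.47 CPM in control and 1.44 to 2.71 CPM in model. All 4 lists thus had medians below 0, as the endothelial list had. Erythroid markers, 8 tested without a call, summed to 656 to 951 CPM in control and 863 to 1984 CPM in model, and the part of blood cells in other results was not tested.

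Some macrophage genes of a phagocytic, lipid-loaded kind were higher. Of 20 tested genes of that list 7 were higher (35.0%, against 0.519% of all genes tested) and none lower. The list's median log2 fold change was 1.19, and the model values of 11 lay wholly above control, where 9.71% of all genes did. The summed level of the list did not separate the groups, at 21057 to 25024 CPM in control and 20778 to 24794 CPM in model. Most of that sum was Apoe, apolipoprotein E, which hepatocytes also make, at 20844 ± 2311 and 20462 ± 2109 CPM. Gpnmb, a glycoprotein of lysosome-rich macrophages (ENSMUSG00000029816, chromosome 6, 49036546 to 49070929), was at 1.88, 1.42 and 1.38 CPM in control and 6.39, 10.1 and 5.95 CPM in model (4.78-fold, adjusted p = 0.00851, edgeR). Mmp12, macrophage elastase, was at 1.48, 1.58 and 0.784 CPM in control and 12.3, 19.5 and 7.23 CPM in model, and Lgals3, galectin-3, at 3.43, 2.15 and 3.83 CPM against 11.7, 17.4 and 9.61 CPM. Both model groups lay above every control library. Atp6v0d2, a proton pump subunit of macrophages and osteoclasts, rose from 2.48 ± 0.251 to 6.33 ± 1.65 CPM, and the tetraspanin Cd63 from 6.87 ± 0.925 to 28.1 ± 15.5 CPM, highest in model replicate 2 at 45.9 CPM. Treated libraries were at 182 to 316 CPM for Gpnmb and 173 to 216 CPM for Mmp12. Lilr4b, Lgals3 and Atp6v0d2 kept their calls under all 13 alternatives, and the list had between 4 and 7 calls when 1 library was left out, with 4 without control replicate 2.

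Of 25 tested Kupffer cell and general macrophage markers, 2 were higher and none lower, where 0.519% of all genes tested were higher. Fold changes were above 0 in 21 of them, the median log2 fold change was 0.50, and 6 had model values wholly above control, where 9.71% of all genes did. Whether this list differed from the phagocytic one was not tested. Mpeg1, perforin-2 of macrophages, was at 28.3, 27.2 and 31.0 CPM in control and 53.9, 47.1 and 55.4 CPM in model, and Cd68, a lysosomal membrane protein, rose from 7.49 ± 0.210 to 15.0 ± 4.41 CPM. Markers of resident Kupffer cells had values that overlapped between the groups, 102 ± 29.2 and 119 ± 16.7 CPM for Clec4f, 7.90 ± 2.55 and 6.05 ± 0.774 CPM for Timd4, and 17.7 ± 4.48 and 20.7 ± 3.01 CPM for Vsig4. Neutrophil markers, 15 tested, had no call at an adjusted p under 0.05, although 14 fold changes were above 0, the median was 2.63 and 9 had model values wholly above control. They summed to 10.4 to 27.6 CPM in control and 78.2 to 125 CPM in model, most of it from Lcn2, lipocalin-2, which hepatocytes also make (4.15, 18.9 and 11.1 CPM against 60.3, 86.0 and 65.6 CPM, adjusted p = 0.0775, edgeR). Lymphocyte and natural killer markers, 23 tested, had no call and a median of 0.52.

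Lysosome genes included 5 called members of 48 (10.4%), all higher, where 0.519% of all genes tested were: Ctsd, Hexa, Atp6v0d2, Cd63 and Cd68. The list's median log2 fold change was 0.13. Ctsd, Atp6v0d2 and Cd63 are also called members of the phagocytic macrophage list, and Cd68 is one of the Kupffer cell and general macrophage list. Ctsd, the protease cathepsin D, was measured at 294, 278 and 281 CPM in control and 428, 391 and 386 CPM in model (1.41-fold, adjusted p = 0.0415, edgeR), and Hexa, a hexosaminidase subunit, at 35.6, 42.0 and 45.9 CPM against 57.9, 78.0 and 60.1 CPM. These calls were unstable: 1 to 3 members stayed called when any 1 library was left out. The Ctsd promoter is shown because it holds the letters CACGTG, the core of the element through which lysosomal genes are co-regulated, in RefSeq's 300-base window on the minus strand, GRCm38.p6 chr7:142387778-142388077, matches in capitals.
Ctsd: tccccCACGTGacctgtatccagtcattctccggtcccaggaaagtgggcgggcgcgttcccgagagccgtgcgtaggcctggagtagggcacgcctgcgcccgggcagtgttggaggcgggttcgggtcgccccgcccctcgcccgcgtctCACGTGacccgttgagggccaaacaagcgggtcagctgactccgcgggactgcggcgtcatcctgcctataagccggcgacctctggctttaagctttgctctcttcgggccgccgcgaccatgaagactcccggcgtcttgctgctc
The matches lie 245 and 98 bases before the start. CACGTG reads the same on both strands, and was in 12 of the 36 lysosome genes with a promoter in the table, against 8.09% of all genes with one.

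Acute phase genes of hepatocytes were partly higher. Of 32 tested, 5 were higher (15.6%, against 0.519% of all genes tested) and none lower. The median log2 fold change was 0.33, and 7 fold changes were below 0. Model values lay wholly above control in 14 members and wholly below in 1, where 9.71% and 10.2% of all genes did. The whole list summed to 27735 to 28208 CPM in control and 35615 to 39883 CPM in model. Haptoglobin, Hp, which binds free haemoglobin, was at 3655, 3097 and 3985 CPM in control and 5878, 6775 and 6469 CPM in model (1.78-fold, adjusted p = 0.0128, edgeR), and haemopexin, Hpx, which binds free haem, at 3251, 2636 and 3392 CPM against 4656, 6870 and 6916 CPM. Lrg1, a leucine-rich plasma glycoprotein, was at 250, 304 and 290 CPM against 538, 630 and 504 CPM and was the 1 member called under all 13 alternatives. Saa2, a serum amyloid A protein, rose from 14.3 ± 7.19 to 82.4 ± 23.1 CPM. Its relatives had higher means too without a call, 89.0 ± 31.4 and 226 ± 79.2 CPM for Saa1 (adjusted p = 0.140) and 5.94 ± 2.72 and 21.7 ± 8.71 CPM for Saa3 (adjusted p = 0.120). Fgl1, a fibrinogen-like protein of hepatocytes from the coagulation list, was at 476, 335 and 584 CPM in control and 1038, 1482 and 1112 CPM in model. Without model replicate 2 or model replicate 3 the acute phase list had 1 call each, without control replicate 2 it had 2 and without model replicate 1 it had 3.

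Steap4, a metalloreductase of iron and copper uptake, was the member with the most motif types in its promoter, which is why its sequence is shown. It rose from 57.6, 49.6 and 40.8 CPM to 79.6, 82.7 and 84.9 CPM (1.67-fold, adjusted p = 0.0282, edgeR). The RefSeq window lies on the plus strand of GRCm38.p6, chr5:7960222-7960521, and capitals mark, in this order, the NF-kB motif read on the other strand, TTCCNGGAA, and TTNNGCAA read on the other strand.
Steap4: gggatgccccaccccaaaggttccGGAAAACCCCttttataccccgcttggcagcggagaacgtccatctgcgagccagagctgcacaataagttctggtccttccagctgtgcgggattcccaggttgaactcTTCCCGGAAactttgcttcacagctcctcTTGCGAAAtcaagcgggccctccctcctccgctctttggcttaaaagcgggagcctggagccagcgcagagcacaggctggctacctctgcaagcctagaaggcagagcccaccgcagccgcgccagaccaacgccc
The last pair are letters of STAT3 and C/EBP sites, and the 3 matches lie 226, 116 and 87 bases before the start. On either strand, TTNNGCAA was in 13 of the 26 acute phase genes with a promoter in the table and in 12.2% of all genes with one, the NF-kB motif was in 3 of 26 and 1.89%, and TTCCNGGAA in 2 of 26 and 1.35%.

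Interferon-responsive genes had 39 of 43 fold changes above 0, where 49.8% of all genes did, and a median of 0.42. Model values lay wholly above control in 15 members, where 9.71% of all genes did. Only 2 members were called higher (4.65%, against 0.519% of all genes tested). Zbp1, a nucleic acid sensor, was at 4.22, 2.02 and 4.65 CPM in control and 12.6, 12.4 and 9.92 CPM in model (3.21-fold, adjusted p = 0.0286, edgeR), and Nlrc5, the transactivator of MHC class I genes, at 14.9, 18.3 and 18.4 CPM against 28.5, 32.3 and 33.7 CPM. The list had no call without control replicate 3, model replicate 2 or model replicate 3. Psme1, an interferon-inducible proteasome activator, rose from 65.9 ± 7.07 to 104 ± 2.06 CPM. In 38 inflammatory mediators there was 1 call (2.63%, against 1.12% of all genes tested). It was Icam1, a leukocyte adhesion molecule, at 15.9, 11.1 and 13.6 CPM in control and 25.3, 25.2 and 24.1 CPM in model. Cytokine genes stayed low in every library, with Tnf at a mean of 0.446 CPM in control and 0.274 CPM in model and Il1b at 1.78 and 1.15 CPM.

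The circadian clock in each cell runs on activators, BMAL1 (gene Arntl) with CLOCK or NPAS2, that switch on the Period, Cryptochrome and REV-ERB genes and the output factors such as Dbp, while ROR factors and REV-ERB act on Arntl through the letters AGGTCA. Of 7 activator genes tested, 4 were lower (57.1%, against 0.596% of all genes tested) and none higher, with a median log2 fold change of -0.64. Arntl (ENSMUSG00000055116, chromosome 7, 113207465 to 113314126) averaged 22.8 ± 3.52 CPM in control (19.2 to 26.2 CPM) and stood at 7.84, 6.08 and 9.83 CPM in model and 20.2, 12.2 and 19.4 CPM in treated libraries (2.88-fold lower in model, adjusted p = 0.0128, edgeR). Npas2 was at 2.77, 5.40 and 3.34 CPM in control and 0.775, 0.383 and 0.437 CPM in model, with 1.77 to 3.67 CPM in treated. Clock fell from 44.1 ± 4.45 to 29.3 ± 2.42 CPM and Rora from 54.6 ± 6.35 to 34.9 ± 2.59 CPM. No member was called without model replicate 2, 1 without model replicate 1, and 2 each without model replicate 3 and control replicate 2, and none of the 4 kept its call under all 13 alternatives.

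On the other side of the loop edgeR called no gene of 17, while DESeq2 called 7. Over all genes tested DESeq2 called 444 higher and 427 lower. The median log2 fold change was 0.41, and 10 genes had model values wholly above control, where 9.71% of all genes did. Per3 was at 9.04, 3.21 and 3.10 CPM in control and 32.8, 33.7 and 26.5 CPM in model (adjusted p = 0.0885, edgeR), and Dbp at 26.5, 8.81 and 3.92 CPM against 132, 88.5 and 61.6 CPM (adjusted p = 0.259). For both genes the groups did not overlap, and the control libraries spread widely. Nr1d1, which encodes REV-ERB alpha, overlapped between the groups at 81.3 to 135 CPM in control and 118 to 153 CPM in model. Nfil3, a repressor of the same output sites as Dbp and itself in antiphase to it, was at 49.5 to 63.3 CPM in control and 14.2 to 26.6 CPM in model (adjusted p = 0.0619). The labels give no time of day of collection, and its part in these values was not tested.

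The Arntl promoter is shown for the AGGTCA letters, in the RefSeq window on the plus strand of GRCm38.p6, chr7:113207261-113207560, in capitals 31 bases after the start.
Arntl: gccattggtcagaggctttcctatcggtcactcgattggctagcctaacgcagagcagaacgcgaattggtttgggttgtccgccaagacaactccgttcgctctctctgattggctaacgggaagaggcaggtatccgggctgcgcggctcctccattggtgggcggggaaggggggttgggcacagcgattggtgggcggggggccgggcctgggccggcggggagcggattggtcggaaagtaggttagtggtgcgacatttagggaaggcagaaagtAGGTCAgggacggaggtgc
On either strand AGGTCA was in 3 of the 6 clock activator genes with a promoter in the table and in 18.1% of all genes with one.

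**Figure D3:**
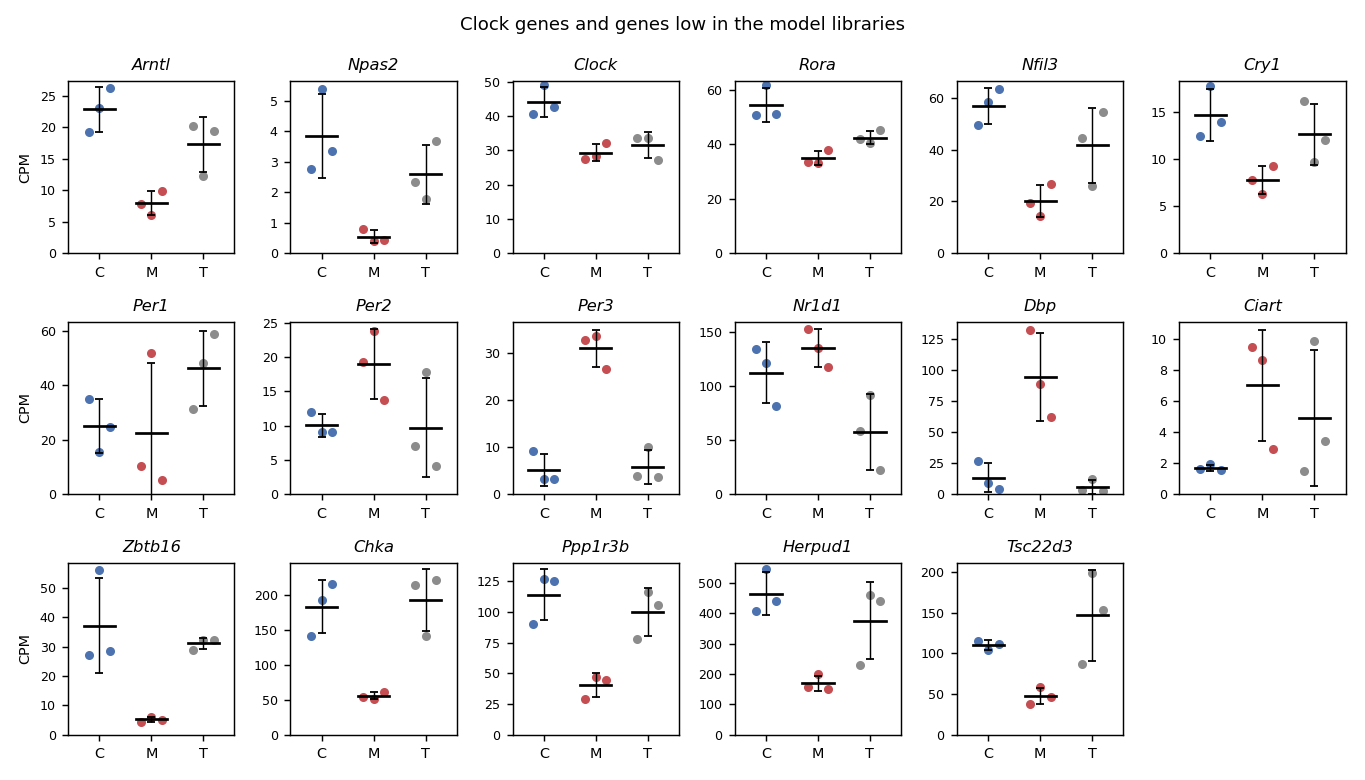
CPM of 12 clock genes and 5 further genes that were low in model libraries, with 1 point per control (C), model (M) and treated (T) library, the mean as a bar and the SD as the error bar. Arntl, Zbtb16, Chka, Ppp1r3b and Herpud1 show model points below all control points and every treated point above every model point.

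Several further genes shared the shape of Arntl, with every treated library above every model library. They were set side by side after their values were seen. Ppp1r3b, which targets protein phosphatase 1 to glycogen, was at 90.5, 127 and 125 CPM in control, 29.3, 47.1 and 45.0 CPM in model and 78.1 to 116 CPM in treated. Herpud1, part of the ER-associated degradation machinery, was at 408, 546 and 442 CPM in control and 158, 199 and 151 CPM in model. In treated libraries it was at 229 to 459 CPM, with treated replicate 1 (229 CPM) below every control library. In treated libraries Chka stood at 141 to 221 CPM and Zbtb16 at 28.9 to 32.3 CPM. Among 24 glucocorticoid and fasting genes, Zbtb16 was the 1 called (4.17%, against 1.12% of all genes tested) and 19 fold changes were below 0. The median was -0.32, and 8 members had model values wholly below control, where 10.2% of all genes did. Tsc22d3, a classical glucocorticoid target, was at 115, 104 and 112 CPM in control and 37.9, 58.2 and 47.1 CPM in model (adjusted p = 0.0814, edgeR).

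Genes of the drug's own target pathway were called among ERK targets but not among receptors and ligands. Of 18 tested EGFR family receptors and ligands none was called and the median log2 fold change was 0.03. Egfr was at 499, 270 and 366 CPM in control and 453, 698 and 637 CPM in model, overlapping groups with an adjusted p of 0.305 (edgeR), and Erbb3 at 157 ± 22.0 and 146 ± 29.6 CPM. Among 19 feedback regulators and targets of ERK signalling 2 were lower and 1 higher (15.8%, against 1.12% of all genes tested), with 14 fold changes below 0 and a median of -0.32. Without model replicate 1 the list had 1 lower and 1 higher gene. Spry4, a feedback inhibitor of receptor tyrosine kinase signalling, was at 8.45, 13.2 and 10.1 CPM in control and 1.28, 2.48 and 3.78 CPM in model (4.21-fold lower, adjusted p = 0.0267), and Phlda1 at 57.4, 66.7 and 94.4 CPM against 37.5, 41.2 and 42.6 CPM. Ccnd1, cyclin D1, moved the other way, from 11.2, 6.92 and 6.27 CPM to 21.6, 30.9 and 28.2 CPM (3.31-fold, adjusted p = 0.0152). Dusp6, the ERK phosphatase, was at 16.7 to 22.4 CPM in control and 8.75 to 13.5 CPM in model without a call (adjusted p = 0.123). Of 19 immediate early genes 2 were called (10.5%, against 1.12% of all genes tested). Fos fell from 2.39 ± 1.08 to 0.665 ± 0.156 CPM and Atf3 rose from 1.12 ± 0.386 to 2.53 ± 0.157 CPM.

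**Figure D4:**
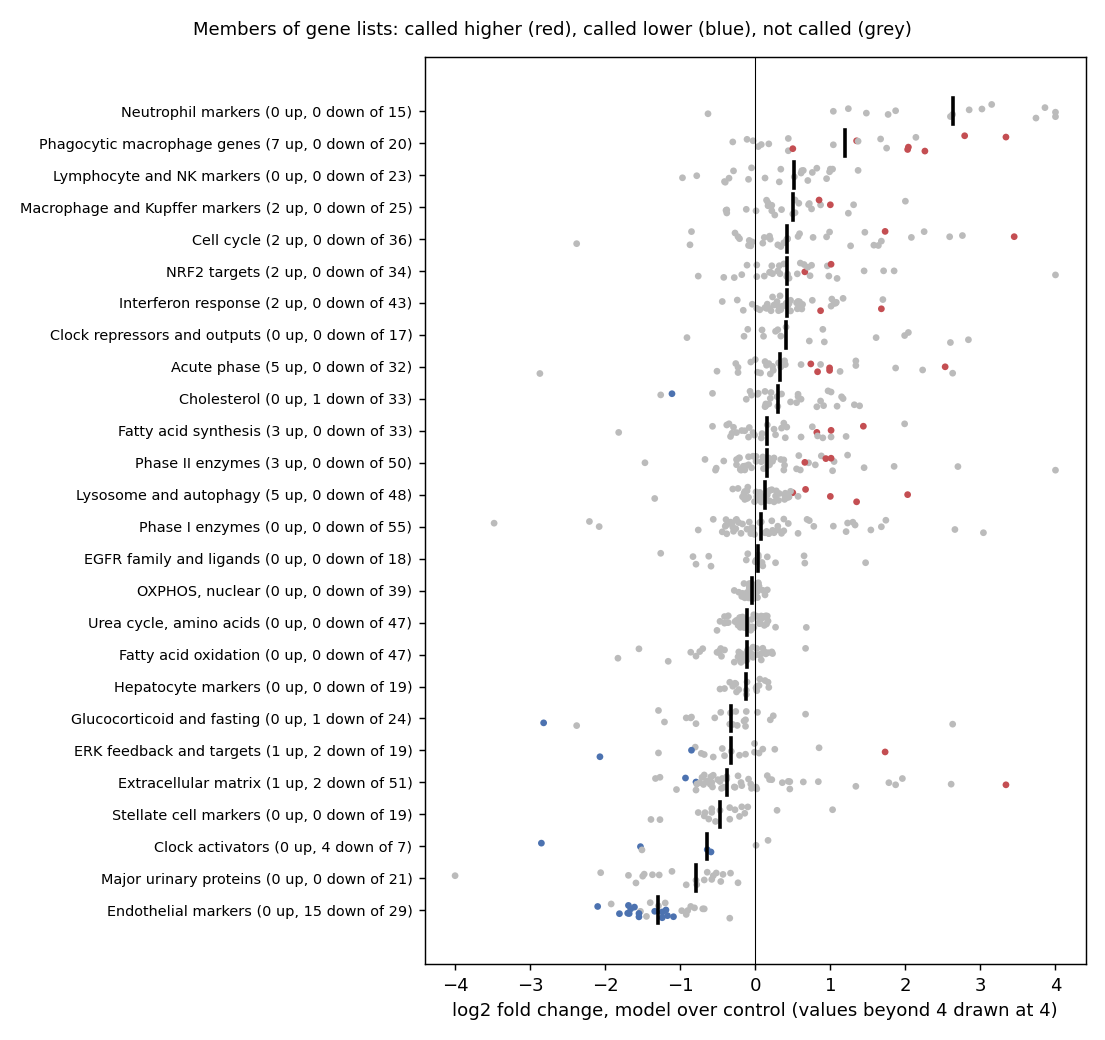
Log2 fold changes of model over control for the tested members of 26 of the 55 gene lists, picked after their values were seen, 1 point per gene, with the list's median as a black bar, called genes in red (higher) or blue (lower) and counts in the labels. Among the lists drawn, endothelial markers lie lowest with a median of -1.29, and neutrophil markers and phagocytic macrophage genes highest with 2.63 and 1.19. Of those not drawn, mesothelial markers were lower (-1.34) and skeletal muscle markers higher (7.67). The muscle median rested on model replicate 1, where the muscle markers summed to 271 CPM, and was -0.06 without that library.

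Few drug metabolism genes were called. None of 55 phase I enzymes was called by edgeR, with a median log2 fold change of 0.08. DESeq2 called 7 of them, and 444 genes higher and 427 lower over all genes tested. Cyp3a11, the main mouse counterpart of human CYP3A4, was at 4465, 5974 and 6136 CPM in control and 6224, 5239 and 6916 CPM in model, which overlap (adjusted p = 0.772), and Cyp2d22 at 534 ± 121 and 513 ± 26.3 CPM. Cyp1a1 was low, with 0.583 ± 0.367 and 1.95 ± 1.48 CPM, and Cyp1a2 overlapped at 450 ± 151 and 610 ± 157 CPM. Cyp2a5, a coumarin hydroxylase that rises in liver injury, had 44.7, 222 and 43.9 CPM in control and 870, 1105 and 584 CPM in model, groups that did not overlap but an adjusted p of 0.131. Of 50 conjugating enzymes 3 were higher, all in modest steps: Ugdh, which makes UDP-glucuronic acid, from 100 ± 14.7 to 201 ± 24.3 CPM, Mgst3, a microsomal glutathione transferase, from 9.85 ± 1.04 to 18.9 ± 2.29 CPM, and Ephx1, microsomal epoxide hydrolase, from 513, 398 and 375 CPM to 653, 693 and 692 CPM. Ugdh and Ephx1 are also the 2 calls among 34 NRF2 targets (5.88%, against 1.12% of all genes tested). Of these targets 29 had fold changes above 0, with a median of 0.42. The model values of 16 lay wholly above control, where 9.71% of all genes did. Gsta1, a glutathione transferase, was at 0.947, 2.38 and 1.90 CPM in control and 13.8, 79.6 and 34.7 CPM in model (adjusted p = 0.0556).

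Most lists without a call by edgeR at the adjusted threshold held members with an unadjusted p under 0.05, a level that 13.9% of all genes tested reached. That count was 9 of 19 for stellate, 7 of 15 for neutrophil, 3 of 19 for hepatocyte, 4 of 8 for erythroid, 2 of 6 for mesothelial and 5 of 18 for skeletal muscle markers, and 0 of 11 and 0 of 23 for cholangiocyte and for lymphocyte and natural killer markers. In functional lists it was 8 of 17 for clock repressors and outputs, 14 of 55 for phase I enzymes, 3 of 18 for the EGFR family, 5 of 47 for fatty acid oxidation, 5 of 47 for urea cycle and amino acid genes, 4 of 31 for p53 targets, 1 of 39 for nuclear oxidative phosphorylation and 4 of 21 for major urinary proteins. Over the 18113 genes tested, DESeq2 called 444 higher and 427 lower at its adjusted threshold. Of these, 5 were stellate, 4 neutrophil, 1 hepatocyte, 3 erythroid, 4 muscle and 7 clock genes. A further 7 were phase I, 2 fatty acid oxidation, 1 p53 and 3 major urinary protein genes, with none in the other lists named here. With limma-voom, 1 neutrophil, 1 clock and 1 phase I gene were called.

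Without model replicate 1, the library with the muscle transcripts, calls rose from 3 to 5 among conjugating and related enzymes. They rose from 2 to 3 among NRF2 targets and from 2 to 4 among cell cycle genes. All of these were higher, and 1 stellate marker was called lower. Calls went from 3 to 2 among iron and ferroptosis genes, and the matrix list kept its 1 higher but neither of its 2 lower calls. Both calls were lost among immediate early genes and among complement and coagulation genes, and all 3 among ion and water transport genes. The single calls were lost in the bile acid, cholesterol, unfolded protein response, integrated stress response, proteasome, cell death, inflammatory mediator, cytoskeleton and junction lists. The part of muscle RNA in these differences was not tested.

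Serum transaminase genes did not separate the groups. Gpt, alanine aminotransferase, was at 239, 298 and 304 CPM in control and 309, 283 and 226 CPM in model, and Got1, cytosolic aspartate aminotransferase, at 108 ± 36.5 and 172 ± 92.5 CPM. These are transcript levels and not the serum enzyme.

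Bile acid and lipid genes had few calls. The share called was 2.78% of bile acid, 9.09% of fatty acid synthesis, 3.03% of cholesterol and 10.3% of phospholipid genes. Over all genes tested it was 1.12%. Of 36 bile acid genes, Slco1a4, a basolateral uptake transporter for organic anions, was the 1 called, at 72.9, 35.5 and 58.0 CPM in control and 179, 232 and 182 CPM in model (3.57-fold, adjusted p = 0.0446, edgeR). Cyp7a1, the rate-limiting enzyme of bile acid synthesis, lay just outside the threshold at 60.9, 27.2 and 47.7 CPM in control and 189, 384 and 175 CPM in model (adjusted p = 0.0505). Fatty acid synthesis had 3 higher of 33. Elovl6, which elongates palmitate, was at 9.06, 8.75 and 5.63 CPM in control and 18.4, 19.0 and 26.3 CPM in model and was called under all 13 alternatives; Pklr, liver pyruvate kinase, rose from 64.9 ± 12.8 to 131 ± 3.62 CPM and Acsl4, an arachidonate-activating enzyme, from 19.1 ± 0.694 to 33.7 ± 7.24 CPM. None of 47 fatty acid oxidation genes was called (median -0.11). Of 33 cholesterol genes, Mylip, the ligase that degrades the LDL receptor, fell from 10.7 ± 2.64 to 4.94 ± 0.328 CPM, and 27 members had fold changes above 0 with a median of 0.30. In phospholipid metabolism Plpp2 rose from 18.9 ± 0.703 to 34.2 ± 4.39 CPM while Plpp1 and Chka fell.

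Stress, death and growth genes had few calls. The share called was 3.85% of unfolded protein response, 2.94% of cell death and 5.56% of cell cycle genes. Over all genes tested it was 1.12%. Of 26 unfolded protein response genes Herpud1 was the 1 called, and no p53 target of 31 was, although Cdkn1a, the cell cycle inhibitor p21, had 24.7, 39.9 and 74.3 CPM in control and 8.89 ± 0.851 CPM in model (adjusted p = 0.0505, edgeR). Among 34 cell death genes Mlkl, the executioner of necroptosis, rose from 2.31 ± 0.225 to 4.85 ± 1.13 CPM. Of 36 cell cycle genes the calls were Ccnd1 and Ccnb1, cyclin B1, the latter from 0.429, 0.0961 and 0.131 CPM to 1.42, 2.33 and 3.52 CPM. In that list 26 fold changes were above 0, where 49.8% of all genes were, with a median of 0.42. Model values lay wholly above control in 10 members and wholly below in 3, where 9.71% and 10.2% of all genes did. The list summed to 297 to 327 CPM in control and 274 to 304 CPM in model. Hfe, a regulator of hepcidin, rose from 29.0 ± 2.11 to 48.8 ± 2.88 CPM. None of 39 nuclear oxidative phosphorylation genes or of 47 urea cycle and amino acid genes was called.

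Matrix, barrier and transport genes had calls in both directions. The matrix list, 51 tested, had 34 fold changes below 0 and a median log2 fold change of -0.38. Model values lay wholly below control in 12 members and wholly above in 6, where 10.2% and 9.71% of all genes did. Of 51 matrix genes, Sparc, a matrix glycoprotein of vessel and stellate cells, was at 96.7, 62.0 and 65.3 CPM in control and 39.1, 39.1 and 39.5 CPM in model, and Hspg2, the basement membrane proteoglycan perlecan, fell from 24.4 ± 4.38 to 14.1 ± 1.41 CPM (adjusted p = 0.0184 and 0.0358, edgeR). The other call on the list was the rise of Mmp12. Col1a1, the main fibrillar collagen chain, had 5.60 ± 0.801 and 7.68 ± 1.61 CPM without a call. Krt8, a hepatocyte keratin, rose from 142, 122 and 102 CPM to 236, 196 and 217 CPM, and Cldn2, a tight junction protein, from 50.7 ± 6.18 to 78.7 ± 0.820 CPM. The metal transporters Slc39a8 and Slc30a10 fell from 31.9 ± 2.70 to 19.7 ± 2.11 CPM and from 76.2 ± 7.65 to 43.6 ± 7.45 CPM, and the dicarboxylate transporter Slc13a3 rose from 14.3 ± 0.641 to 24.4 ± 3.36 CPM. Major urinary protein genes, 21 tested, had no call although all fold changes were below 0 (median -0.79); Mup1 was at 1373, 14316 and 12637 CPM in control, so control replicate 1 lay under all model libraries, at 2487 to 5390 CPM. Near-identical Mup copies can share reads, and single members are uncertain.

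Some gene totals depend on how reads were shared between overlapping genes or transcripts. Gemin4 had the largest fold among called genes above 5 CPM, from 0.00, 0.0577 and 0.0373 CPM in control to 7.73, 6.59 and 6.09 CPM in model, but it lies on the same strand as Glod4, and the 2 genes together were at 44.7 ± 2.62 and 47.5 ± 1.81 CPM, whose ranges overlapped. Of the 202 called genes 15 overlap another tested gene on the same strand (7.43%, against 8.38% of all genes tested), and 39 overlap 1 on the opposite strand (19.3%, against 25.5%), where the strand setting of the counting is not given in the sources used here. At transcript level, in deposited FPKM (fragments per kilobase of transcript, scaled to depth, so a per-length scale), the fall of Chka was largest in absolute terms in a retained intron form of 4652 bases, ENSMUST00000125859, from 19.2 ± 2.64 to 5.11 ± 0.162 FPKM, while the protein-coding ENSMUST00000025760 had 7.20 ± 2.20 and 6.44 ± 0.987 FPKM. The other protein-coding form of Chka, ENSMUST00000072055, had 4.27, 7.24 and 6.90 FPKM in control, was listed at 0 in model replicates 1 and 2 and had 3.46 FPKM in model replicate 3. Both coding forms of Herpud1 were lower, 98.1, 119 and 114 FPKM in control and 24.4, 50.5 and 26.0 FPKM in model for ENSMUST00000034220, and means of 89.3 ± 16.5 and 40.3 ± 1.65 FPKM for ENSMUST00000161576. The signal of Adgrv1, a large adhesion receptor gene that fell from 41.9, 23.2 and 16.9 CPM to 5.10, 1.55 and 2.33 CPM, came from a form of 1591 bases, ENSMUST00000128120. The Lilr4b transcripts that averaged 0.5 FPKM or more in either group were retained intron or nonsense-mediated decay forms, and none was protein-coding. The leading 1 in model, the retained intron form ENSMUST00000219151, went from 0.0587 ± 0.102 to 3.04 ± 1.00 FPKM. Of 93 called genes with at least 2 transcripts at 0.5 FPKM or more, 72 had the same leading transcript in both groups. Transcript values are estimates and are given as a description.

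Of the 202 called genes, 35 kept their call under all 13 alternatives. Those that rose were Atp6v0d2, Cenpm, Elovl6, Gemin4, Gpr146, Lgals3, Lilr4b, Lrg1, Mpeg1, Plxnb1, Slc20a1, Smpd3, Tmem176a, Tmem97 and Uap1l1. Those that fell included Bmp2, Cd300lg, Chka, Ehd3, Fam167b, Fcgr2b, Gpihbp1, Gpr182, Mug4-ps, Pecam1, Plpp1, Plxnc1, Pxdn, Slc45a3, Stab2, Tedc2, Tek, Tspan7 and Zbtb16. Smpd3, a neutral sphingomyelinase, was at 0.465, 0.808 and 0.802 CPM in control and 3.48, 5.16 and 5.67 CPM in model, and Slc45a3, a sugar transporter family gene, at 55.8, 75.9 and 81.5 CPM against 26.9, 24.6 and 29.8 CPM.

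**Figure D5:**
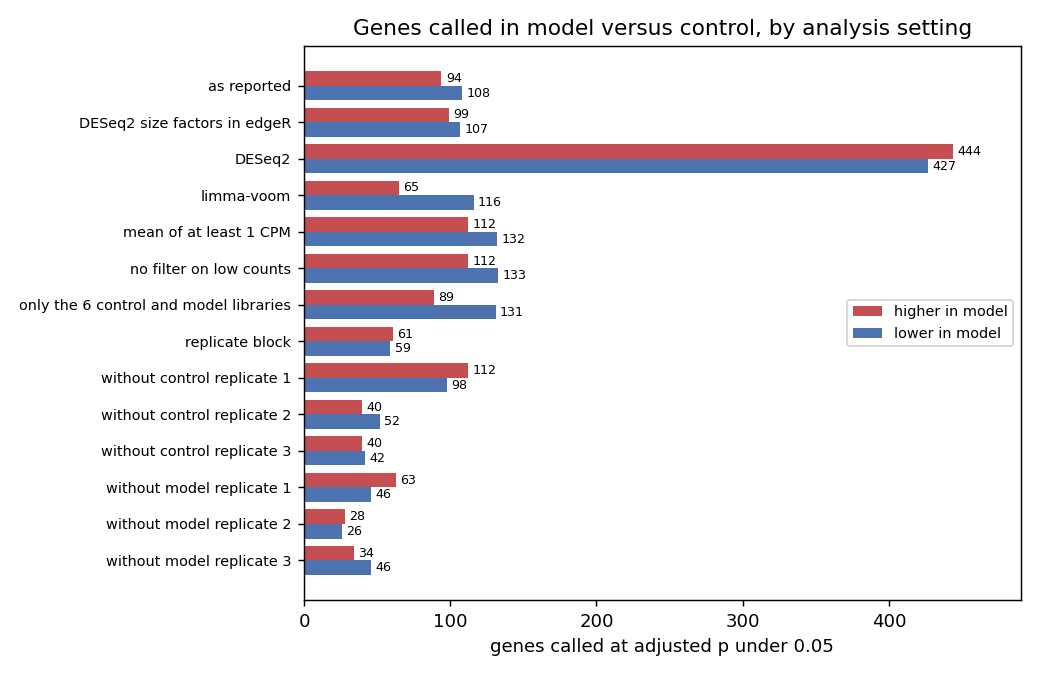
Number of genes called higher (red) and lower (blue) in model against control as reported and under each of the 13 alternative settings, on an axis from 0. The count runs from 28 higher and 26 lower without model replicate 2 to 444 higher and 427 lower with DESeq2.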

How the data were processed

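RNA of mouse liver was purified with TRIzol and made into Illumina libraries, per the labels' protocols. Reads were aligned with HISAT2, per the submitters' processing notes, which give no version. How counts were made, with which strand setting and annotation, is not given in the sources used here. Estimated counts for genes (whole numbers) and FPKM for genes and transcripts are the values the authors deposited. Gene positions matched GENCODE M21 (GRCm38) for 25083 of the 27945 gene identifiers with a count.

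Estimated counts were filtered with filterByExpr, scaled by TMM and tested with edgeR 4.0.16 (R 4.3.3), the robust quasi-likelihood fit over all 9 libraries giving the contrast model minus control; p-values were adjusted by the Benjamini-Hochberg method over 18113 genes. On simulated counts with planted changes, the test called 43 of 100 2-fold and 83 of 100 4-fold changes. It also called 8 genes without a planted change. A missing call thus does not show that a gene did not differ. FPKM described transcripts only. The control and model libraries held between 56440871 and 60207688 counts each.

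Genes were named by rule: per direction the 8 largest and the 8 most precise changes among called genes whose groups did not overlap and whose higher group reached 5 CPM, the 5 most abundant called genes, up to 4 called members per list, and Egfr, Erbb3, Cyp3a11, Cyp2d22, Cyp1a1, Cyp1a2, Alb, Gpt and Got1. Other genes were chosen after their values were seen. The comparison and the 55 gene lists were chosen with earlier results of these data known. Alternatives were DESeq2 1.42.0, limma-voom (limma 3.58.1), other size factors and filters, 6 libraries only, a replicate block and leaving out each library. 1 gene that the rule names is not reported here.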

Additional observations from a re-analysis of the deposited data

How the results depend on the processing

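The calls depended more on the libraries and the tool than on scaling or filtering. DESeq2 called 444 genes higher and 427 lower, which included 93 of the 94 and 108 of the 108 reported. DESeq2 size factors in edgeR gave 99 and 107, limma-voom 65 and 116, a mean of at least 1 CPM 112 and 132, no filter 112 and 133, and the 6 libraries alone 89 and 131, which included 60 of the 94 and 92 of the 108 reported. Leaving out 1 library gave 28 to 112 higher and 26 to 98 lower genes, with the lowest counts without model replicate 2, where a group of 2 is left. Deviations of same-numbered control and model libraries from their group means correlated at -0.0756, -0.0647 and -0.0606, and those of differently numbered ones at -0.00239 to 0.0634. No shared deviation was thus seen. The labels do not say what a number marks, and these correlations cannot show that it marks no shared animal or batch. With the number as a replicate block, 61 genes were higher and 59 lower, 55 of each among those reported. Of the 72 named genes that were called, 22 kept the call under all 13 alternatives, 14 lost it under 1 to 3 and 36 under 4 or more, and none of these 72 changed direction under any of the 13. Genes under 1 CPM were called in 0.124% of cases, and the part of depth in this was not tested; a missing call there does not show that a gene did not differ.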
